A study of Homo sapiens and Mus musculus with 69 samples.

Results

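Protocadherin genes were followed in RNA-Seq of small cell lung cancer (SCLC) cell lines treated to switch Notch signaling on, to block it again, or to switch it on without REST or STING. Members were chosen by symbol alone: every symbol made of PCDH and a number, or beginning with PCDHA, PCDHB, or PCDHG, without the 2 symbols that end in P. This gave 67 of the 20516 genes in the human table, of which 54 belonged to the gene clusters on chromosome 5 (15 alpha, 18 beta, and 21 gamma genes) and 13 were single, non-clustered genes. In the separate table of KP1, a mouse SCLC line with mutant Rb1 and Trp53, the same symbols in title case gave 34 of 18501 genes: 22 beta genes, 1 alpha gene (*Pcdha11*), and 11 non-clustered genes, with no gamma gene listed. *PCDHB17* and *PCDHB18* are annotated as a pseudogene and a noncoding RNA but met the rule and were kept. *PCDH11Y*, a Y-linked gene, was counted as a member and its level is not given.

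The 69 libraries formed 23 groups of 3. H82 cells were sampled as the parental line and with a lentiviral, doxycycline-inducible vector for *N1ICD*, the active intracellular part of NOTCH1, without and with doxycycline (1 µg/mL), each in intact, *REST*-KO, and STING-KO cells. H524 cells were sampled as the parental line, with the *N1ICD* vector, and with a *REST* vector, each vector without and with doxycycline. H69 cells were sampled as the parental line and with the *N1ICD* vector without and with doxycycline. COR-L88 cells received DMSO, the LSD1 inhibitor TAS1440 (100 nM), or TAS1440 plus GSI (the gamma-secretase inhibitor BMS-708163 at 2 µM) for 28 days, and STING-KO COR-L88 cells received DMSO or TAS1440. KP1 cells received DMSO, TAS1440, or TAS1440 plus GSI (DBZ at 10 µM) for more than 28 days. Doxycycline was given for at least 28 days (56 days in H524 and in intact and *REST*-KO H82, and more than 56 days in H69). The cells that had become adherent were collected, so the induced groups were also selected by adhesion. KO lines were CRISPR single-cell clones, and the labels do not say which clone each library came from or whether the 3 libraries of a group were separate cultures. The *P* values therefore measure only the spread between these libraries, which may be technical. H82 and H524 are NEUROD1-type neuroendocrine lines.

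Protocadherins are transmembrane adhesion proteins of the cadherin superfamily and are best known from neurons. In the clusters, each isoform has its own promoter and its own first exon. The alpha and gamma exons are joined to constant exons shared by their cluster, whereas each beta gene is a single exon with its own end. CTCF and cohesin act at these promoters, and a single neuron uses only a few of them, so that cells with the same set recognize each other through homophilic binding. The C-type isoforms at the end of the alpha and gamma clusters are used more broadly. The non-clustered genes lie scattered over the genome, each has its own regulation, and most encode the delta protocadherins, which act in cell sorting, axon guidance, and cell motility.

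In GRCh37, the build of the human table, the alpha genes spanned chr5:140165721-140391932, the beta genes chr5:140430959-140628933, and the gamma genes chr5:140710081-140892544. The non-clustered *PCDH1* lay further along the same chromosome arm on the minus strand, at chr5:141232655-141258811. Stretches of the promoters are shown for 7 clustered genes that led their class in at least 1 of the lines or that responded most to *N1ICD*. They are RefSeq sequence of GRCh38.p14 on the plus strand, from windows of 250 bases upstream of the gene start, and they lie at chr5:140827879-140827941 (*PCDHA6*), chr5:140868869-140868927 (*PCDHA11*), chr5:141208625-141208687 (*PCDHB12*), chr5:141213847-141213909 (*PCDHB13*), chr5:141387601-141387663 (*PCDHGB4*), chr5:141407908-141407970 (*PCDHGB6*), and chr5:141475864-141475926 (*PCDHGC3*). Capitals mark the 8-base word most shared within that cluster, or in *PCDHA11*, which has no full copy, the letters CGCT.
PCDHA6: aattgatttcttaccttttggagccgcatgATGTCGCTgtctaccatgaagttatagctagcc
PCDHA11: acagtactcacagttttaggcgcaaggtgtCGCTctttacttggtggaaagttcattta
PCDHB12: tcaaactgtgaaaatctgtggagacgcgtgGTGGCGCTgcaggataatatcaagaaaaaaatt
PCDHB13: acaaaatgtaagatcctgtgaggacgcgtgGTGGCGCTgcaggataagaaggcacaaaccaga
PCDHGB4: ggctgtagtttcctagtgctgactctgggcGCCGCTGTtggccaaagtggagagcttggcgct
PCDHGB6: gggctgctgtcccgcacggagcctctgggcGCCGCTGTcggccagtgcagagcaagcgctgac
PCDHGC3: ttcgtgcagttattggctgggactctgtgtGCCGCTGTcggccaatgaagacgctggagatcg

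The promoter table held 46 of the 54 clustered and 11 of the 13 non-clustered members. On either strand, ATGTCGCT was present in 9 of 13 alpha promoters and in 0.182% of all 35097 promoters in the table. GTGGCGCT was present in 12 of 14 beta promoters and in 0.940% of all promoters. GCCGCTGT was present in 10 of 19 gamma promoters and in 1.23% of all promoters. The word of each cluster was in no promoter of the other 2 clusters. The 3 words overlap in CGCT, which was found in 44 of the 46 clustered promoters and in 64.8% of all promoters, so that these letters alone are common. The words were picked as the most shared ones and their shares are a description. GTGGGAA, a word bound by the Notch partner RBPJ, was in 0 of the 11 non-clustered promoters and in 5.43% of all promoters, which says only that these letters are not in the window.

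Expression values are log2(RPKM + 1) as deposited, so that differences of low genes are understated and the depth of the libraries is unknown. Relative library size, from the steps of low values, ran from 0.698 to 1.52 times the typical human library and from 0.872 to 1.07 in KP1. A gene was tested in a line if its value was at least 1 in at least 3 libraries of that line, and was called if the limma fit over all genes gave a Benjamini-Hochberg-adjusted *P* under 0.05 and a log2 fold change of at least 1 in size. The tested members were 16 clustered and 6 non-clustered genes in H82, 18 and 6 in H524, 25 and 8 in H69, 16 and 5 in COR-L88, and 15 and 4 in KP1. Some of these met the rule only through treated libraries in which they are high, so counts and medians of tested members partly follow from the filter. The other members did not meet that rule in a line and were not tested there, although some reached the level in 1 or 2 libraries. The non-clustered *PCDH12*, for example, read 1.81, 1.83, and 0.92 in the induced *REST*-KO libraries of H82 and was listed at 0 in the uninduced ones. Because alpha and gamma genes share exons, up to 54.9% and 48.4% of their longest transcript, the assignment of reads among them is uncertain, whereas human beta genes share none, and in KP1 beta genes share at most 9.67%.

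The introduced genes were checked first. *NOTCH1*, whose intracellular part the vector encodes, rose with doxycycline from a mean of 1.16 to 4.86 in H82, from 1.20 to 8.06 in H524, and from 0.39 to 7.99 in H69. *REST* rose from 4.99 to 9.01 in H524 cells with the *REST* vector, unevenly, with induced libraries from 6.87 to 10.72. In *REST*-KO H82 cells *REST* mRNA was 4.11 without and 5.26 with doxycycline, against 4.64 and 6.31 in intact cells, so the transcript was still present, and an mRNA level does not check a frame-shifting KO. *TMEM173*, which encodes STING and is named here as a targeted gene, was not lower in the H82 libraries labelled STING KO (0.39 and 1.61) than in intact cells (0.01 and 1.11), and these libraries are called by their label. The Notch target *HES1* rose with *N1ICD* in H82 (1.29 to 5.47) and H524 (0.56 to 4.66) and was not called in H69 (3.27 to 3.79). With TAS1440 *HES1* was not called in COR-L88 (4.65 to 4.52), fell in STING-KO COR-L88 (5.27 to 3.41), and rose in KP1 (*Hes1*, 0.79 to 5.13).

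The markers of cell state moved with most treatments described here. The mean of 5 neuroendocrine markers (*NEUROD1*, *INSM1*, *CHGA*, *SYP*, and *NCAM1*) was 6.85 to 7.09 in uninduced and 1.59 to 2.09 in induced H82 libraries, 7.67 to 7.83 and 5.15 to 5.92 in H524, 7.12 to 7.36 and 1.06 to 1.14 in H69, 5.45 to 5.54 with DMSO and 2.41 to 2.67 with TAS1440 in COR-L88, and 3.33 to 3.79 and 0.12 to 1.86 in KP1. The mean of 4 non-neuroendocrine markers (*VIM*, *AXL*, *CD44*, and *YAP1*) rose in each of these, for example from 1.48–2.24 to 7.72–7.75 in H69. In these bulk libraries fewer cells of a type cannot be told apart from less RNA per cell, and the part of cell state in the protocadherin values was not tested.

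Before treatment the lines expressed different clustered isoforms. Of the 54 clustered genes, 28 did not reach a mean of 1 in any of the 4 untreated human lines, 10 reached it in 1 line, 8 in 2, 6 in 3, and 2 in 4 (*PCDHB12* and *PCDHGB1*). When all 20 human groups were taken, 21 reached it in no line and 8 in all 4. The summed RPKM of clustered genes was 28.8 ± 8.31 in H82, 76.1 ± 21.6 in H524, 112 ± 4.45 in H69, and 167 ± 14.6 in COR-L88 with DMSO (SD, *n* = 3 each). COR-L88 concentrated its clustered expression in few genes, with 64.4% of the sum in the leading 3, against 37.7% in H82.

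In some classes and lines the leading isoform was the same in every library, whatever the treatment, and in others it was not. *PCDHA11* was the highest alpha gene in 15 of 15 H524 and 15 of 15 COR-L88 libraries, and *PCDHA6* in 9 of 9 H69 libraries. *PCDHB13* led the beta class and *PCDHGB6* the gamma class in 9 of 9 H69 libraries, and *PCDHGB2* led the gamma class in 15 of 15 H524 libraries. The beta class of H524 was led by *PCDHB13* in 7, *PCDHB6* in 6, and *PCDHB2* in 2 of 15 libraries, with *PCDHB6* leading every *N1ICD*-induced library. H82 was less fixed, with *PCDHAC2* leading the alpha class in 11 and *PCDHA11* in 10 of 21 libraries. There *PCDHB2* led the beta class in 12 and *PCDHGB1* the gamma class in 14 of 21. In COR-L88 *PCDHGB4* led the gamma class in 11 and *PCDHGB1* in 4 of 15 libraries.

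**Figure D1:**
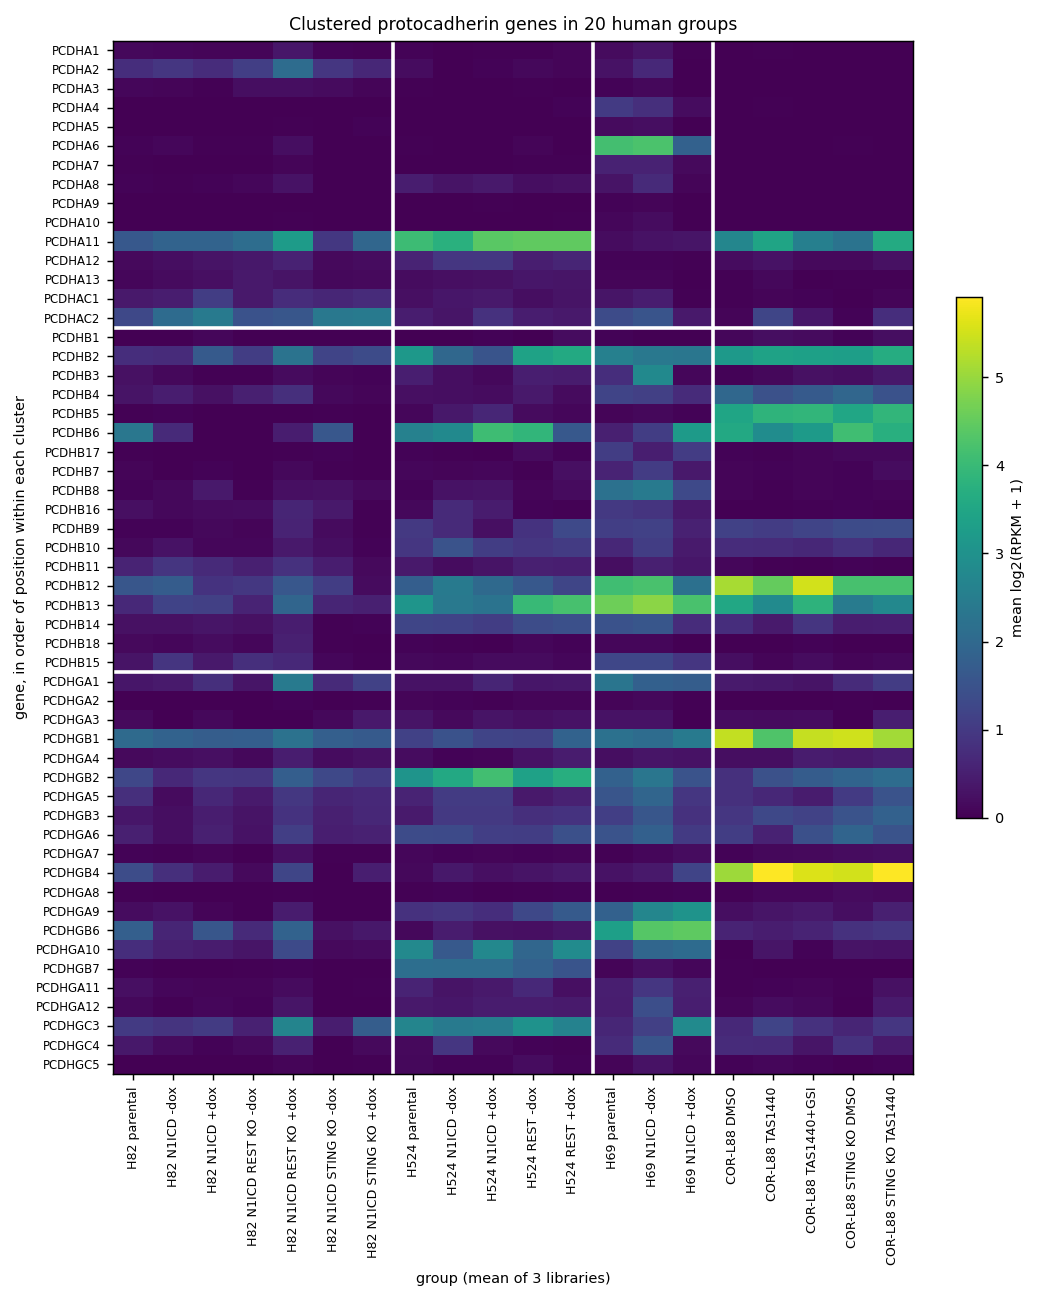
Group means (log2(RPKM + 1), color) of the clustered protocadherin genes across the human groups of 3 libraries each. Different genes are bright in different lines, such as *PCDHGB6* in H69 and *PCDHGB1* and *PCDHGB4* in COR-L88, and *PCDHA6* darkens in H69 with *N1ICD*.

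*N1ICD* raised *PCDH1* in all 3 lines, and no other member rose as far in any of them. *PCDH1* encodes a protocadherin found in epithelia, including the airway. In H82 it read 0.30, 0.30, and 0.32 in the 3 uninduced libraries and 6.42, 6.05, and 6.81 in the 3 induced ones (log2 fold change 6.12 ± 0.23, SE, limma adjusted *P* = 8.87e-13). Parental H82 cells read 0.38, 0.00, and 0.00. In H524 the 3 libraries went from 1.47, 2.36, and 2.38 to 7.89, 8.30, and 8.53 (log2 fold change 6.17 ± 0.40, adjusted *P* = 4.9e-08). In H69 they went from 1.28, 1.74, and 1.42 to 8.39, 8.27, and 8.27 (6.83 ± 0.12, adjusted *P* = 3.94e-10). No induced library overlapped with an uninduced or parental one in any line.

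In H82 3 protocadherin genes were called, all higher and all non-clustered, and 0 of 16 clustered genes were called by limma, with 4 of them at an unadjusted *P* under 0.05. Of all genes tested in this comparison, 27.1% were called, 14.7% higher and 12.4% lower. *PCDH7*, a delta protocadherin, read 0.00, 0.08, and 0.14 without and 2.33, 1.57, and 1.87 with doxycycline (log2 fold change 1.85 ± 0.14, adjusted *P* = 8.16e-09). *PCDH18*, another delta protocadherin, read 0.22, 0.24, and 0.29 without and 2.11, 1.78, and 1.88 with doxycycline (1.67 ± 0.13, adjusted *P* = 1e-08). Both groups of libraries were apart from each other for both genes. The 16 tested clustered genes had a median log2 fold change of 0.07, against −0.0026 over all genes and 0.94 over the 6 non-clustered genes. After quantile normalization 3 members rose and 2 fell, 1 of them clustered. With a pseudocount of 0.1 the count was 8, with 3 clustered genes higher and 1 lower, so that the absence of clustered calls depended on these settings. The share of all genes under either setting is not given here, so these counts are not set against it.

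In H524 4 genes rose and none fell, and 18.6% of all genes were called, 11.4% higher and 7.19% lower. Beside *PCDH1*, *PCDH18* went from 0.01, 0.05, and 0.14 to 2.43, 3.10, and 2.46 (log2 fold change 2.60 ± 0.20, adjusted *P* = 2.06e-07). *PCDH10*, a delta protocadherin, went from 2.60, 2.86, and 3.15 to 4.93, 4.47, and 4.37 (1.72 ± 0.44, adjusted *P* = 0.00826). The parental libraries read 5.03, 4.77, and 5.33 for *PCDH10* and overlapped with the induced ones, so the rise was from a level that was lower in the uninduced vector line (log2 fold change against parental cells −2.17, adjusted *P* = 0.00333). The gamma gene *PCDHGA10* rose by 1.11 (adjusted *P* = 0.0176), also from a level below that of parental cells, and its call was lost without library 22, 24, or 27 (range 0.94 to 1.34). Median log2 fold changes were −0.06 over 18 clustered and 1.09 over 6 non-clustered genes, against −0.02 over all genes.

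In H69 protocadherin genes changed in both directions. Of 33 tested members 6 rose and 9 fell, in a comparison in which 41.8% of all genes were called, 21.4% higher and 20.4% lower. Whether members were called, or fell, more often than other genes was not tested. *PCDH9*, a delta protocadherin of neural tissue, dominated the uninduced cells. It read 10.29, 10.28, and 10.41 without and 2.31, 2.52, and 2.35 with doxycycline, and 9.33, 9.45, and 9.24 in parental cells. The log2 fold change was −7.93 ± 0.08 (adjusted *P* = 2.03e-11), and no library of the induced group came near the others. *PCDH9* was not called in H82 (3.30 to 3.50, adjusted *P* = 0.781) or H524 (4.15 to 3.66, adjusted *P* = 0.358) cells with *N1ICD*.

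Among the other non-clustered genes in H69, *PCDH19*, an X-linked epilepsy gene, went from 2.60, 3.03, and 2.27 to 0.25, 0.27, and 0.18 (log2 fold change −2.40 ± 0.16, adjusted *P* = 1.31e-06). *PCDH11X* read 1.38, 1.41, and 1.35 without doxycycline and was listed at 0 in all 3 induced libraries. *PCDH8*, an activity-regulated delta protocadherin, read 1.14, 1.15, and 0.81 without and 0.05, 0.05, and 0.02 with doxycycline, just under the fold threshold (−0.99, adjusted *P* = 4.79e-05). In the other direction, *PCDH7* went from 0.00 in each library to 1.84, 1.80, and 1.89 and *PCDH18* from 1.60, 1.22, and 1.12 to 2.69, 2.75, and 2.73 (1.41 ± 0.12, adjusted *P* = 6.1e-06). *PCDH10* rose by 1.43 (adjusted *P* = 4.87e-05) to 2.07, 2.07, and 2.04, again below parental cells (2.56, 2.39, and 2.76).

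**Figure D2:**
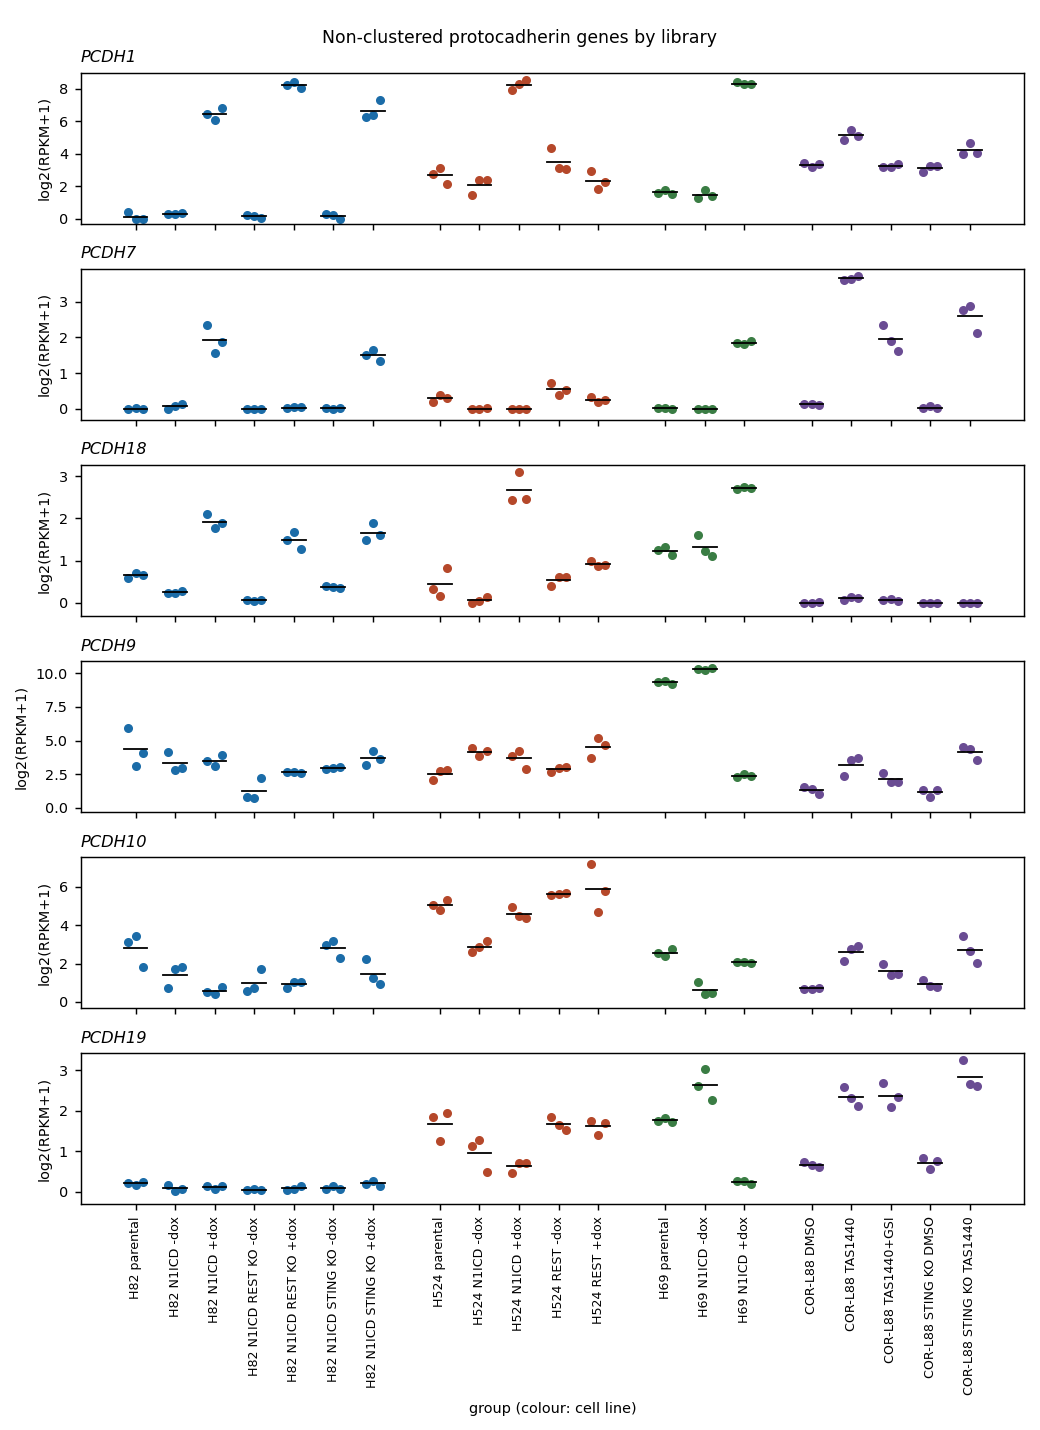
Expression (log2(RPKM + 1)) of non-clustered protocadherin genes in each library (points), by group (bars, means). *PCDH1* separates induced from uninduced cells in H82, H524, and H69, and *PCDH9* falls from above 10 to below 3 in H69.

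Of the clustered genes of H69, 2 alpha genes fell, 1 beta gene rose and 3 fell, and 1 gamma gene rose and 1 fell. *PCDHA6*, the leading alpha gene, went from 4.21, 4.33, and 4.20 to 1.58, 1.72, and 2.18 (log2 fold change −2.42 ± 0.15, adjusted *P* = 6.09e-07). Among beta genes *PCDHB12* went from 4.28, 3.83, and 4.55 to 2.24, 1.92, and 2.40 (−2.03 ± 0.21, adjusted *P* = 2.15e-05). *PCDHB3* went from 2.86, 2.71, and 2.87 to 0.09, 0.14, and 0.09, but had read only 0.77, 0.77, and 0.76 in parental cells. The beta gene *PCDHB6* read 1.58, 0.00, and 1.61 without and 3.36, 2.96, and 3.33 with doxycycline (2.15 ± 0.53, adjusted *P* = 0.00466), and parental libraries were listed at 0.00, 1.57, and 0.00. With a pseudocount of 0.1 this call was lost (adjusted *P* = 0.0556).

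The C-type isoforms of H69 also divided. *PCDHGC3* rose from 1.05, 1.27, and 1.06 to 2.89, 2.80, and 2.77 (log2 fold change 1.69 ± 0.09, adjusted *P* = 2.56e-07). *PCDHGC4* fell from 1.34, 1.69, and 1.55 to 0.12, 0.21, and 0.10 (−1.39 ± 0.09, adjusted *P* = 1.35e-06). *PCDHAC2* fell from 1.69, 1.64, and 1.31 to 0.34, 0.43, and 0.42 (−1.15 ± 0.12, adjusted *P* = 2.24e-05). None of the 3 had overlapping groups, and after quantile normalization *PCDHAC2* came to −0.998, just short of the fold threshold. The leading gamma gene *PCDHGB6* was about as high with (4.50, 4.46, and 4.40) as without doxycycline (4.40, 4.14, and 4.54), while parental libraries read 3.15, 3.46, and 3.37. In sum over RPKM, alpha genes went from 23.9 ± 1.76 to 3.58 ± 0.83, beta genes from 73.1 ± 15.2 to 40.2 ± 0.98, and gamma genes from 53.5 ± 7.74 to 52.3 ± 1.88 (SD, *n* = 3). The clustered median was −0.68 and the non-clustered median 0.21, against 0.08 over all genes.

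**Figure D3:**
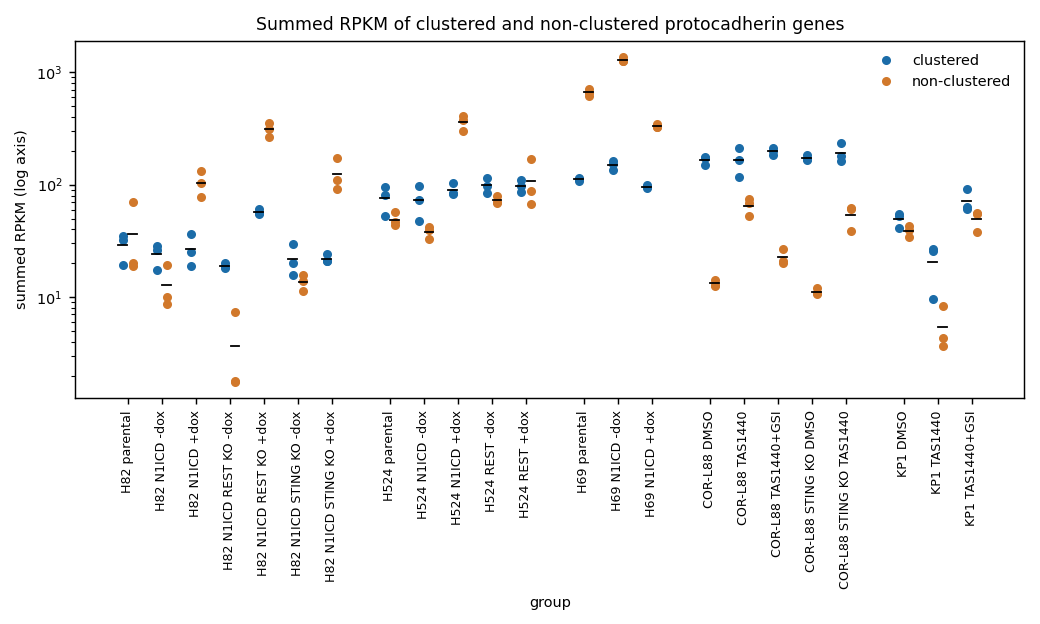
Summed RPKM of the clustered and the non-clustered protocadherin genes in each library, by group, on a log axis (points, libraries and bars, group means). In H82 and H524 the non-clustered sum rises with *N1ICD* (12.7 to 104.5 and 38.2 to 361 on average) while the clustered sums of induced and uninduced libraries overlap, and in H69 both sums fall (non-clustered 1297 to 333, clustered 151 to 96.1).

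The vector without doxycycline was compared with parental cells as a background. In H82 2 members were lower in uninduced vector cells (*PCDH10* and *PCDHGB6*), among 6.41% of all genes called, 3.75% higher and 2.66% lower. *PCDHGB6* read 1.27, 2.01, and 2.07 in parental and 0.62, 0.42, and 0.78 in vector cells (log2 fold change −1.18 ± 0.21, adjusted *P* = 0.00104), a call lost when only these 2 groups were fitted (adjusted *P* = 0.0602). The *PCDH10* call was lost on leaving out 5 of the 6 libraries one at a time (−1.85 to −1.02). In H524 2 members were higher and 3 lower with the *N1ICD* vector, among 12.1% of all genes (4.94% higher and 7.16% lower), and 0 of 24 members were called with the *REST* vector by limma, among 0.264% (0.022% higher and 0.242% lower), with 3 at an unadjusted *P* under 0.05. In H69 2 were higher (*PCDHB3* and *PCDHGB6*) and 1 lower (*PCDH10*), among 5.27% (3.02% higher and 2.25% lower). *PCDH1* was called in none of these 4 comparisons.

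The *REST* vector was compared with the *N1ICD* vector in H524. *NOTCH1* mRNA also rose with the *REST* vector induced, from a mean of 0.49 to 1.87 (limma adjusted *P* = 0.0144). Doxycycline in cells with the *REST* vector changed 1 of 24 tested members, *PCDH9*, from 2.67, 2.94, and 3.03 to 3.70, 5.18, and 4.66 (log2 fold change 1.63 ± 0.38, adjusted *P* = 0.0368). The call was lost on leaving out 5 of the 6 libraries one at a time (1.30 to 2.04). Only 1.87% of all genes were called in this comparison, 1.28% higher and 0.586% lower. *PCDH1* read 4.38, 3.10, and 3.06 without and 2.94, 1.80, and 2.28 with the *REST* vector induced (−1.18 ± 0.40, adjusted *P* = 0.141). The neuroendocrine marker mean was 6.91 to 7.59 with *REST* induced, against 7.71 to 7.94 without.

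The response to *N1ICD* differed from the response to *REST* for 4 members, with 3 higher and 1 lower under *N1ICD*, among 15.6% of all genes, 9.88% higher and 5.68% lower. For *PCDH1* the difference of the 2 log2 fold changes was 7.34 ± 0.57 (adjusted *P* = 7.19e-07), and for *PCDH18* 2.22 ± 0.28 (adjusted *P* = 6.15e-05). *PCDHB6*, the other gene with a higher response to *N1ICD*, read 1.48, 3.81, and 3.15 before and 4.30, 3.88, and 4.06 after *N1ICD*, and 3.90, 3.56, and 4.23 before and 2.68, 2.18, and 0.00 after *REST* (difference 3.54 ± 0.89, adjusted *P* = 0.0126). *PCDH9* responded less to *N1ICD* than to *REST* (−2.12 ± 0.54, adjusted *P* = 0.0131). Neither *PCDHB6* change was called on its own. Between the induced cells themselves, 4 members were higher and 4 lower with *N1ICD* than with *REST*, among 23.8% of all genes, 12.3% higher and 11.5% lower. *PCDHB2* was among the lower genes, at 1.48, 1.56, and 1.58 with *N1ICD* and 3.57, 3.63, and 3.58 with *REST* (log2 fold change −2.05 ± 0.17, adjusted *P* = 3.5e-07). It was already lower in the uninduced *N1ICD* vector cells than in parental cells (−1.17, adjusted *P* = 0.000336).

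In H82 cells with *REST* KO, *N1ICD* raised clustered as well as non-clustered genes. With doxycycline 11 of the 22 tested members rose and none fell, 7 of them clustered, among 29.9% of all genes, 16.2% higher and 13.7% lower. The clustered median was 0.99 and the non-clustered median 1.25, against −0.01 over all genes. After quantile normalization, with a median over all genes of −0.12, 4 members remained called (*PCDH1*, *PCDH18*, *PCDHGC3*, and *PCDHGA1*), so the count of the other 7 depended on the scaling. The summed RPKM of clustered genes went from 18.9 ± 0.97 to 57.6 ± 3.26 in *REST*-KO cells without overlap of libraries, and from 24.0 ± 5.94 to 26.8 ± 8.66 with overlap in intact cells (SD, *n* = 3). The number of clustered genes at 1 or above was 5 in each uninduced and 14 or 15 in each induced *REST*-KO library.

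*PCDH1* in *REST*-KO cells went from 0.20, 0.14, and 0.06 to 8.24, 8.42, and 8.01, every induced library above every induced intact one (log2 fold change 8.09 ± 0.23, adjusted *P* = 3.07e-14). *PCDHGC3*, the broadly used C-type gamma isoform whose promoter is shown above, went from 0.59, 0.56, and 0.51 to 2.49, 2.59, and 2.93 (2.12 ± 0.18, adjusted *P* = 2.25e-08). *PCDHGA1*, the first gene of the gamma cluster, went from 0.18, 0.37, and 0.43 to 2.13, 2.32, and 2.81 (2.09 ± 0.19, adjusted *P* = 4.41e-08). Induced *REST*-KO libraries were above all other H82 libraries for both genes.

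*PCDHB2* went from 1.07, 0.94, and 1.23 to 2.17, 2.36, and 2.25 (log2 fold change 1.18 ± 0.15, adjusted *P* = 3.6e-06) and *PCDHB13* from 0.19, 0.72, and 0.82 to 1.84, 2.13, and 1.83 (1.35 ± 0.26, adjusted *P* = 0.000326). *PCDHA11* read 2.07, 2.33, and 1.95 without and 3.57, 3.67, and 2.53 with doxycycline (1.14 ± 0.34, adjusted *P* = 0.00912), a call lost without library 31 or 32 (0.93 to 1.50). Of the non-clustered genes, *PCDH8* rose by 1.09 (adjusted *P* = 0.00669), lost without library 28 or 29, and *PCDH9* by 1.41 (adjusted *P* = 0.0357), lost without any of libraries 28, 29, 31, 32, and 33 (1.14 to 1.89). The *PCDH9* rise started from *REST*-KO libraries at 0.81, 0.69, and 2.18, which were below intact cells (log2 fold change −2.08, adjusted *P* = 0.0149).

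The response itself differed between *REST*-KO and intact cells for 9 members, 8 with a higher response in *REST* KO, among 12.9% of all genes, 7.46% higher and 5.46% lower. The difference in log2 fold change was 1.98 ± 0.26 for *PCDHGC3* (adjusted *P* = 3.16e-05), 1.97 ± 0.33 for *PCDH1* (adjusted *P* = 0.000366), and 1.74 ± 0.27 for *PCDHGA1* (adjusted *P* = 0.000185). *PCDH7* was the exception. It was at 0.02, 0.04, and 0.04 in induced *REST*-KO libraries, against 2.33, 1.57, and 1.87 in induced intact ones, so that its response was lower by 1.82 on the log2 scale (SE 0.20, adjusted *P* = 5.75e-06). *PCDH18* rose in *REST*-KO cells as well (1.42 ± 0.13), and the difference in response was −0.25 ± 0.19 (adjusted *P* = 0.391).

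Set side by side after doxycycline, 6 members were higher and 1 was lower (*PCDH7*) in *REST*-KO than in intact cells, among 17.6% of all genes, 9.44% higher and 8.21% lower. Without doxycycline only *PCDH9* was called lower, among 6.24% (3.39% higher and 2.85% lower), and that call was lost without library 4, 28, or 29. Induced *NOTCH1* was also higher in *REST*-KO (mean 9.55) than in intact cells (4.86), and the neuroendocrine markers stayed higher (3.79 to 4.18 against 1.59 to 2.09). The part of either in these differences was not tested.

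**Figure D4:**
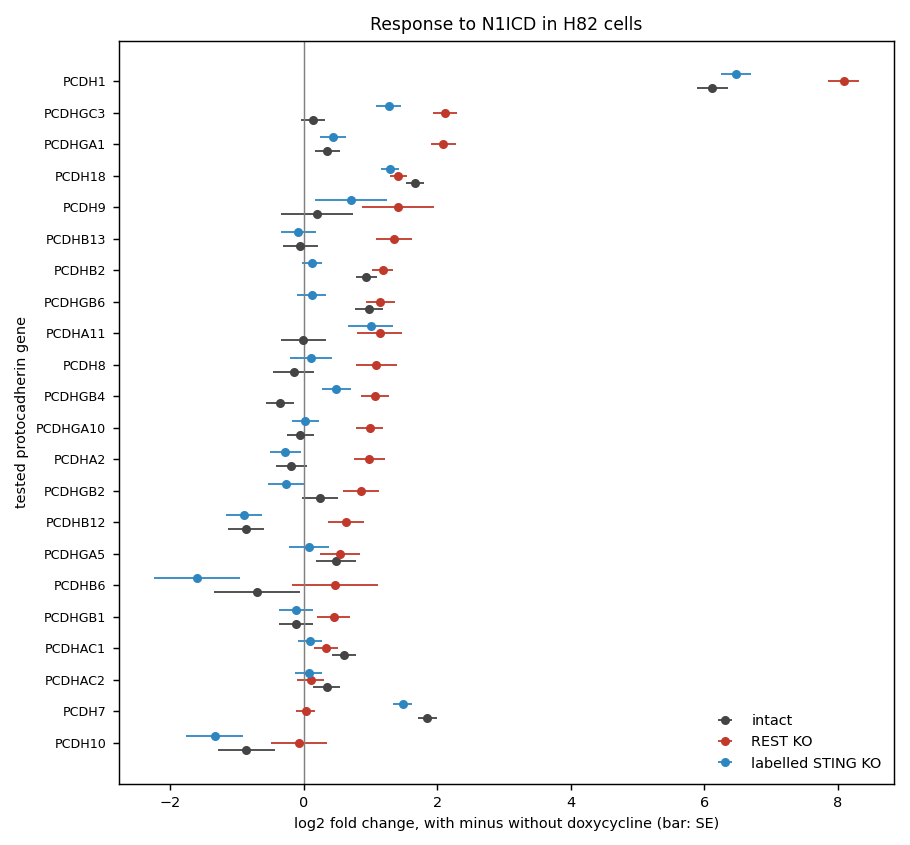
Log2 fold change with doxycycline (± SE) of each tested protocadherin gene in intact, *REST*-KO, and STING-KO H82 cells with the *N1ICD* vector. *PCDH1* is far above the others in all 3, while *PCDHGC3* and *PCDHGA1* rise most in *REST*-KO cells and *PCDH7* does not rise there.

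In H82 cells labelled STING KO, *N1ICD* raised 5 members and lowered 1, among 20.2% of all genes, 12.2% higher and 8.07% lower. *PCDH1* went from 0.30, 0.24, and 0.00 to 6.27, 6.40, and 7.30 (log2 fold change 6.48 ± 0.23, adjusted *P* = 7.66e-13), and its response differed from that of intact cells by 0.36 ± 0.33 (adjusted *P* = 0.551). *PCDH7* (1.48) and *PCDH18* (1.29) rose too. *PCDHGC3* went from 0.53, 0.48, and 0.39 to 1.63, 1.84, and 1.73 (1.27 ± 0.18, adjusted *P* = 2.41e-05), a call lost after quantile normalization, where the log2 fold change was 0.995. It was the only member whose response differed from intact cells (1.13 ± 0.26, adjusted *P* = 0.00996), among 7.12% of all genes (3.91% higher and 3.21% lower), and the call was lost without library 8. After quantile normalization 3 members rose and 3 fell, given without the share of all genes under that setting. The *PCDHA11* rise (1.00) and the *PCDH10* fall (−1.34) were each lost on leaving out 4 of the 6 libraries one at a time (0.79 to 1.17 and −1.72 to −1.06), and that of *PCDHA11* also after quantile normalization (log2 fold change 0.74). Against intact cells, *PCDHGB6* was lower with doxycycline (−1.21, adjusted *P* = 0.000301), among 16.5% of all genes, 7.72% higher and 8.75% lower. *PCDH10* was higher without doxycycline (1.38, adjusted *P* = 0.0165), among 14.4% (6.64% higher and 7.72% lower), a call lost without library 4, 55, or 56. Induced *NOTCH1* was also higher in these cells (mean 6.96) than in intact cells (4.86, limma adjusted *P* = 0.00113). Relative library size was 0.714 to 0.730 without and 0.818 to 0.821 with doxycycline, against 1.03 to 1.11 and 1.27 to 1.35 in intact cells. The part of either in the differences between these genotypes was not tested.

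In COR-L88 the LSD1 inhibitor TAS1440 raised all 5 tested non-clustered genes, and of 16 clustered genes 1 rose and 1 fell. Over all genes 22.8% were called, 15.3% higher and 7.46% lower. *PCDH7* rose most, from 0.13, 0.12, and 0.11 with DMSO to 3.62, 3.62, and 3.72 with TAS1440 (log2 fold change 3.53 ± 0.19, adjusted *P* = 9.88e-09). *PCDH1* went from 3.40, 3.21, and 3.37 to 4.86, 5.43, and 5.10 (1.80 ± 0.18, adjusted *P* = 2.01e-06). *PCDH19* went from 0.72, 0.66, and 0.61 to 2.59, 2.32, and 2.10 (1.67 ± 0.19, adjusted *P* = 5.73e-06). *PCDH9* (1.86, adjusted *P* = 0.000375) and *PCDH10* (1.90, adjusted *P* = 0.000102) completed the group, and the DMSO and TAS1440 libraries did not overlap for any of the 5.

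Among clustered genes the C-type isoform *PCDHAC2* went from 0.08, 0.08, and 0.06 to 1.17, 1.27, and 1.23 (log2 fold change 1.15 ± 0.10, adjusted *P* = 7.49e-07, and 0.97 after quantile normalization). *PCDHGB1*, one of the highest members of this line, went from 5.36, 5.30, and 5.42 to 3.74, 4.39, and 4.73 (−1.08 ± 0.23, adjusted *P* = 0.00114), a call lost without library 13 (−1.30 to −0.80). *PCDHGB4*, at 4.93, 4.90, and 5.34, read 5.50, 5.89, and 6.35 with TAS1440 (0.85, under the fold threshold). The summed RPKM of clustered genes was 167 ± 14.6 with DMSO and 165 ± 46.4 with TAS1440, and that of non-clustered genes 13.2 ± 0.95 and 65.2 ± 11.7 (SD, *n* = 3). Median log2 fold changes were 0.08 over clustered and 1.86 over non-clustered genes, against 0.01 over all genes.

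Adding GSI, which blocks the cleavage that releases Notch intracellular domains, separated the non-clustered genes. TAS1440 plus GSI raised 2 members over DMSO, *PCDH7* and *PCDH19*, among 9.02% of all genes, 5.62% higher and 3.4% lower. *PCDH1* read 3.20, 3.21, and 3.36 with both drugs, overlapping with the DMSO libraries (log2 fold change −0.07 ± 0.18, adjusted *P* = 0.821), and TAS1440 alone was above both drugs together by 1.87 ± 0.18 (adjusted *P* = 5.32e-06). *PCDH19* read 2.68, 2.08, and 2.33 with both drugs and did not differ measurably from TAS1440 alone (−0.03 ± 0.19, adjusted *P* = 0.929). *PCDH7* was in between, at 2.33, 1.90, and 1.61, below TAS1440 alone by 1.70 ± 0.19 (adjusted *P* = 1.5e-05) and above DMSO. In all, 3 members were higher and 1 lower with TAS1440 alone than with both drugs, among 14.7% of all genes, 10.4% higher and 4.32% lower. The third higher gene, *PCDH9* (1.06, adjusted *P* = 0.0204), was lost without library 14, 15, 17, or 18 (0.81 to 1.48), and the lower one was *PCDHGB1*. *PCDH10* read 2.00, 1.39, and 1.43 with both drugs, below TAS1440 alone without overlap but just under the fold threshold (0.999, limma adjusted *P* = 0.0139). Clustered genes under the threshold without overlap went both ways, such as *PCDHA11* (0.90) and *PCDHAC2* (0.87) higher and *PCDHB12* and *PCDHB13* (each −0.98) lower. After quantile normalization 2 members were higher and 4 lower. With a pseudocount of 0.1 this comparison gave 6 higher and 4 lower members, and both drugs against DMSO gave 5 in place of 2. The share of all genes under these settings is not given here, so these counts are not set against it.

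STING-KO COR-L88 cells treated with TAS1440 repeated the rise of the 5 non-clustered genes, with log2 fold changes from 1.11 (*PCDH1*) to 3.01 (*PCDH9*). A 6th member, *PCDHA11*, went from 2.29, 2.31, and 2.14 to 3.70, 3.75, and 3.37 (1.36 ± 0.14, adjusted *P* = 3.66e-06). Over all genes 16% were called, 10.2% higher and 5.79% lower. The call for *PCDH1* was lost without library 40 or 44 (0.90 to 1.24). Under TAS1440 *PCDH7* was lower in STING-KO than in intact cells (2.76, 2.89, and 2.12 against 3.62, 3.62, and 3.72, log2 fold change −1.06 ± 0.19, adjusted *P* = 0.00152), among 6.53% of all genes (1.48% higher and 5.06% lower), a call lost without library 45 (−1.21 to −0.83) and after quantile normalization, where 2 other members were higher. With DMSO *PCDHB13* was lower (−1.07, adjusted *P* = 0.0465), among 1.47% (0.457% higher and 1.01% lower), and this call was lost without any 1 of the 6 libraries. By limma, 0 of 21 members passed the threshold for a different response to TAS1440, among 4.23% of all genes, with 7 at an unadjusted *P* under 0.05, and *PCDH7* came nearest (−0.98 ± 0.27, adjusted *P* = 0.0424). Under TAS1440 *NOTCH1* was higher in STING-KO (mean 4.11) than in intact cells (2.35, limma adjusted *P* = 0.00524), and its part in these differences was not tested.

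In KP1 TAS1440 lowered protocadherin genes. With TAS1440 1 member rose and 8 fell, among 18.8% of all genes, 9.09% higher and 9.7% lower, and 6 of the 8 were beta genes. *Pcdhb10* went from 2.83, 2.90, and 2.71 to 0.63, 0.15, and 0.67 (log2 fold change −2.33 ± 0.16, adjusted *P* = 7.85e-06) and read 3.05, 2.95, and 3.02 with TAS1440 plus GSI. *Pcdhb6* went from 2.62, 2.62, and 2.75 to 0.31, 0.15, and 0.84 (−2.23 ± 0.21, adjusted *P* = 4.37e-05) and read 3.01, 3.16, and 3.58 with both drugs. *Pcdhb2* went from 2.18, 2.03, and 1.93 to 0.24, 0.18, and 0.57 (−1.71 ± 0.15, adjusted *P* = 2.92e-05) and *Pcdhb5* from 2.84, 2.80, and 2.38 to 1.57, 0.47, and 0.93 (−1.68 ± 0.28, adjusted *P* = 0.00124). No TAS1440 library overlapped with the others for these genes.

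All 6 called beta genes had numbers from 2 to 12, and none of *Pcdhb14* to *Pcdhb22* was called. The summed RPKM of *Pcdhb1* to *Pcdhb13* was 29.9 with DMSO, 3.82 with TAS1440, and 48.8 with both drugs, and that of *Pcdhb14* to *Pcdhb22* was 19.7, 16.9, and 23.1. This division was drawn after the values were seen and carries no test. *Pcdhb17*, for example, read 1.75, 1.67, and 1.50 with DMSO and 1.36, 1.91, and 2.07 with TAS1440. TAS1440 library 5 had the lowest beta sums of its group, and this group held the lowest correlation between libraries of one group (0.936). Without library 5 *Pcdhb3* was no longer called, and the other 7 lower genes were.

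Of the non-clustered genes in KP1, *Pcdh10* went from 5.12, 5.23, and 5.01 to 0.00, 0.84, and 2.07 (log2 fold change −4.15 ± 0.44, adjusted *P* = 8.21e-05) and read 5.16, 5.74, and 5.65 with both drugs. *Pcdh1* went from 2.60, 2.72, and 1.82 to 0.26, 0.89, and 0.70 (−1.77 ± 0.28, adjusted *P* = 0.000919). *Pcdh18* was the one that rose, from 0.04, 0.08, and 0.06 to 1.69, 1.57, and 2.25 (1.78 ± 0.20, adjusted *P* = 0.000134). Both *Pcdh1* and *Pcdh10* went the other way from *PCDH1* and *PCDH10* in COR-L88, a difference between separately scaled tables that was not tested. With TAS1440 plus GSI 0 of 19 members were called against DMSO by limma, among 1.21% of all genes, with 8 at an unadjusted *P* under 0.05. TAS1440 alone against both drugs gave 1 higher and 10 lower members, among 16.5%, 8.5% higher and 8% lower. The calls for *Pcdh1* (−1.01) and *Pcdh18* (1.11) in that comparison were each lost without single libraries (−1.15 to −0.82 and 0.91 to 1.26). The 2 comparisons share the TAS1440 libraries.

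**Figure D5:**
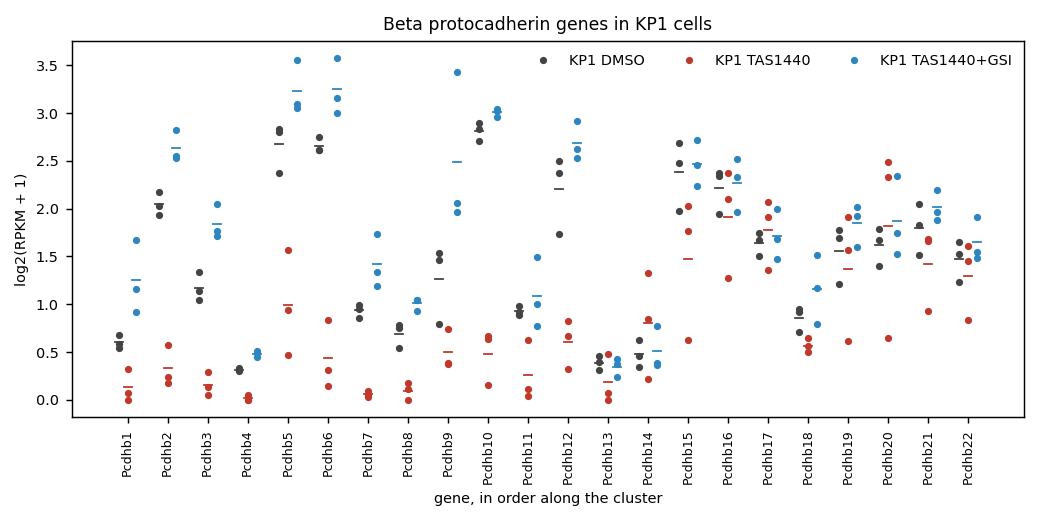
Expression (log2(RPKM + 1)) of the *Pcdhb* genes in order of their number in each KP1 library with DMSO, TAS1440, or TAS1440 plus GSI (bars, means). The TAS1440 libraries lie below the others for each gene up to *Pcdhb12* and overlap with them for most genes from *Pcdhb13* on.

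Across the lines, then, the calls among clustered and non-clustered genes are given as counts, since no test was made between the classes. With *N1ICD* in intact H82 cells, 0 of 16 clustered and 3 of 6 non-clustered genes were called, beside 27.1% of all genes. In H524 they were 1 of 18 and 3 of 6 beside 18.6%, and in H69 8 of 25 and 7 of 8 beside 41.8%. With TAS1440 they were 2 of 16 and 5 of 5 in COR-L88 beside 22.8%, and 6 of 15 and 3 of 4 in KP1 beside 18.8%. The clustered share was thus below that of all genes in 4 of these 5 comparisons and above it in KP1. Some called genes were tested only because they are high after treatment. In H82 *PCDH1*, *PCDH7*, and *PCDH18* reached 1 only with doxycycline, and in H524 *PCDH18* did so only with *N1ICD* induced. In COR-L88 *PCDH7*, *PCDH19*, and the clustered *PCDHAC2* reached it in no DMSO library. The same held for *Pcdh18* in KP1, and in H69 *PCDH7* reached it only with doxycycline. *PCDHB3* and *PCDHGC4*, which fell in H69, reached it there only in the uninduced vector libraries. The shares called are therefore partly set by the filter. With a pseudocount of 0.1 the clustered calls became 4 of 16 in H82, 1 of 18 in H524, 14 of 25 in H69, 3 of 16 in COR-L88, and 8 of 15 in KP1. Under that setting 6556 of 13580 genes were called in H69, so that the clustered share there was above that of all genes. For the other lines the share of all genes under that setting is not given here, so those counts are not set against it.

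Genes around the protocadherins were followed through 3 lists: chromatin and DNA-binding regulators of the clusters (32 genes in the human table), binding and signaling partners (41), and genes of other families in and beside the interval on chromosome 5 (25). With *N1ICD*, the regulators rose in 4 and fell in 8 of 32 tested in H82, rose in 1 and fell in 2 of 31 in H524, and rose in 6 and fell in 1 of 31 in H69. Over all genes the shares were 14.7% higher and 12.4% lower in H82, 11.4% and 7.19% in H524, and 21.4% and 20.4% in H69. *REST* itself was among the risen genes of all 3 lines (6.31, 5.98, and 5.51 when induced). *KDM1A*, which encodes LSD1, fell in H82 (6.67 to 5.16, adjusted *P* = 1.88e-06) and H524 (5.45 to 4.40, adjusted *P* = 0.000163). *STAG1*, a cohesin subunit, rose in H82 (6.02 to 7.31) and H69 (5.09 to 6.80). With TAS1440, 1 of 31 regulators rose and 2 fell in COR-L88, beside 22.8% of all genes called. The cluster regulator *CTCF* was among those that fell (7.90 to 6.88, adjusted *P* = 3.87e-05). In KP1 1 of 25 rose and 2 fell, beside 18.8% of all genes, *Kdm1a* among the lower ones (3.14 to 1.52, adjusted *P* = 0.000265).

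The partner list rose in 6 and fell in 2 of 37 in H82, rose in 4 and fell in 3 of 37 in H524, and rose in 8 and fell in 5 of 38 in H69, beside 27.1%, 18.6%, and 41.8% of all genes called in either direction. The type II cadherin *CDH11* rose in all 3, from 0.18 to 4.32, from 0.05 to 3.63, and from 0.06 to 7.80. *CDH2*, which encodes N-cadherin, rose in H82 (5.78 to 8.18) and H69 (5.91 to 8.52) and fell in H524 (7.65 to 4.82). *WASF3*, an actin regulator of the WAVE complex that some protocadherins bind, fell in H82 (4.36 to 2.26) and H524 (4.61 to 3.38). With TAS1440, 5 of 36 partners rose and 3 fell in COR-L88, beside 22.8% of all genes called, and 2 of 28 rose and 4 fell in KP1, beside 18.8%. The Wnt receptor *FZD7* rose in both (1.63 to 4.84, and *Fzd7* 0.17 to 4.03), as did *NRP2* (1.70 to 4.66, and *Nrp2* 1.25 to 3.64).

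Of the interval genes, 3 rose and 2 fell of 24 in H82, 1 rose of 22 in H524, and 2 rose and 1 fell of 24 in H69, a lower share in each line than the 27.1%, 18.6%, and 41.8% of all genes. *ARAP3*, which encodes a GTPase-activating protein and lies 170857 bases from *PCDH1* on the same strand, rose in all 3: from 4.30 to 6.60 in H82 (adjusted *P* = 1.43e-06), from 3.59 to 6.44 in H524 (adjusted *P* = 7.33e-05), and from 2.31 to 6.55 in H69 (adjusted *P* = 1.59e-07). Unlike *PCDH1*, *ARAP3* was already higher in uninduced vector than in parental cells of H82 (0.13 to 4.30, adjusted *P* = 4.48e-09) and H69 (0.73 to 2.31, adjusted *P* = 0.000889). With TAS1440 1 of 23 interval genes rose (*DIAPH1*) and 1 fell (*APBB3*) in COR-L88, beside 22.8% of all genes called. In KP1 1 of 18 rose (*Cd14*), beside 18.8%.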

How the data were processed

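RNA was sequenced on an Illumina NovaSeq after a stranded mRNA library preparation. The authors trimmed reads with Cutadapt, aligned them with STAR to hg19 or mm10, quantified genes with RSEM, and scaled them with edgeR's TMM factors, per the study's methods and processing notes. They deposited log2 values of RPKM, 1 table for the 60 human and 1 for the 9 KP1 libraries, scaled separately. The pseudocount of 1 was inferred from the values. No counts were used here, so counting error is unknown.

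Within each line, limma 3.58.1 (R 4.3.3, lmFit, contrasts, eBayes with trend) was fitted to all its groups and all genes that reached a value of 1 in 3 or more libraries of the line, with 24 comparisons of groups and 4 of responses and Benjamini-Hochberg adjustment over all genes tested. Thresholds were an adjusted *P* of 0.05 and a log2 fold change of 1. SE is that of the fit. Tables and figures were made with Python 3.11.15, pandas 2.3.3, numpy 2.4.6, and matplotlib 3.10.9, and the fit was tested on simulated data. Sums were taken over RPKM after undoing the log. No 2 libraries of a group were identical.

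Members, gene lists, and tests were chosen with earlier results of these data known. Named genes were the non-clustered and C-type members that passed the filter, apart from *PCDHAC1* in H82 and *Pcdh8* in KP1. Further named genes were up to 3 other clustered members in each direction per comparison and the 3 highest per line untreated and in any other group. Up to 3 genes in each direction of each list were also named, together with *REST* and *NOTCH1*. *TMEM173*, *HES1*, *PCDH12*, *Pcdhb3*, *Pcdhb17*, and, in H82, *PCDHGA10* were added after values were seen. Alternatives were no filter, a pseudocount of 0.1, quantile normalization, only the groups compared, each library left out, and sums without *PCDHB17* and *PCDHB18*. A marker gene of the neuroendocrine list is not reported here, and the mean of that list was taken without it.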

Additional observations from a re-analysis of the deposited data

Results flagged for a closer look

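A difference in response between genotypes or vectors past the limma threshold singled out the following members. In H82 cells the log2 fold change with doxycycline was higher in *REST*-KO than in intact cells by 1.98 for *PCDHGC3*, 1.97 for *PCDH1*, 1.74 for *PCDHGA1*, 1.51 for *PCDHB12*, 1.42 for *PCDHGB4*, 1.41 for *PCDHB13*, 1.17 for *PCDHA2*, and 1.04 for *PCDHGA10*, and it was different by −1.82 for *PCDH7*. For *PCDHB12* intact libraries read 1.61, 1.47, and 2.10 without and 1.10, 0.91, and 0.57 with doxycycline, and *REST*-KO libraries 0.91, 1.44, and 0.55 without and 1.10, 1.52, and 2.19 with it. The calls for *PCDHA2* and *PCDHGA10* were lost on leaving out 2 and 5 of the 12 libraries one at a time, and with a pseudocount of 0.1 those for *PCDHA2* (adjusted *P* = 0.0750), *PCDHGA10* (0.0732), and *PCDHB13* (0.102) were lost. The call for *PCDHGA10* was lost after quantile normalization as well, with a difference of 0.98. In cells labelled STING KO the response of *PCDHGC3* was higher than in intact cells by 1.13.

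In H524 the response to *N1ICD* exceeded that to *REST* by 7.34 for *PCDH1*, 3.54 for *PCDHB6*, and 2.22 for *PCDH18*, and was different by −2.12 for *PCDH9*. The *PCDHB6* value includes 1 induced *REST* library listed at 0.00 beside 2.68 and 2.18.

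Every TAS1440 library moved one way in COR-L88 and the other way in KP1 for a pair of genes, a difference that was not tested. The log2 fold change was 1.80 for *PCDH1* and −1.77 for *Pcdh1*, and 1.90 for *PCDH10* and −4.15 for *Pcdh10*.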

How the results depend on the processing

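No reported change turned its direction under any alternative run. Of 123 calls for named members, 119 were kept without the filter on low values, 117 when only the groups compared were fitted, 118 with a pseudocount of 0.1, and 108 after quantile normalization, and 717 of 795 were kept when single libraries were left out. Runs in which the gene no longer met the filter are not among the 795. That left 3 runs per comparison of groups for *PCDH18* in H524, *PCDH7*, *PCDHB3*, and *PCDHGC4* in H69, *PCDHAC2* in COR-L88, and *Pcdhb7* in KP1. Without the remaining libraries, taken out singly, these genes were not tested. Depth could not be weighed, since no counts were used, and low genes rest on few reads.

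Counts of called members that moved by over 1.5 times were as follows. They are given without the share of all genes under each setting and show only how far the counts moved. With a pseudocount of 0.1 they became 8 for *N1ICD* in H82 (3 before), 11 and 2 for *REST* KO with and without doxycycline (7 and 1 before), 4 and 4 for STING KO in H82 with and without doxycycline (1 and 1 before), 2 for its response, 7 for the uninduced H69 vector, 5 for TAS1440 plus GSI in COR-L88, 10 for TAS1440 alone against both drugs, 2 for STING KO with TAS1440, and 1 for TAS1440 plus GSI in KP1 (0 before). After quantile normalization they became 5 for *N1ICD* in H82, 4 for *N1ICD* with *REST* KO (11 before), 2 for STING KO without doxycycline, 2 for its response, and 2 and 0 for STING KO with TAS1440 and DMSO in COR-L88. Without the filter they became 1 for the uninduced H82 vector, 0 for *REST* in H524, and 0 for STING KO with DMSO. With only the groups compared they became 0 for the H82 vector, 3 for the H524 *N1ICD* vector (5 before), and 0 for STING KO with DMSO.

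With single libraries left out, counts ran from 0 to 1 for STING KO with DMSO, 1 to 4 for STING KO with TAS1440, 4 to 7 for TAS1440 alone against both drugs, 0 to 1 for the TAS1440 response by STING status, 2 to 5 for *N1ICD* in H524, 0 to 2 for *REST* in H524, 1 to 2 for the STING KO response in H82, 0 to 1 for *REST* KO and 0 to 2 for STING KO without doxycycline, and 1 to 2 for the uninduced H82 vector. The causes were not tested. No paired analysis was possible because library numbers are unique within each table.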
